A study of Mus musculus with 9 samples.

Results

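The 8 genes described here belong to the alternative activation program of macrophages and to the family of chitinases and chitinase-like proteins: Arg1, Retnla, Chil1, Chil3, Chil4, Chia1, Il4ra and Il13ra1. Members were found as every non-control probe whose RefSeq transcript identifier mapped to one of these symbols. This gave 9 probes, 1 for each gene and 2 for Il4ra, of the 56605 probes on each array. All 8 genes were among the 16843 genes tested, and each was well above background on all 9 arrays.

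RNA from whole mouse lung was measured on 9 one-colour Agilent expression arrays, 1 per lung. All mice were TRF1flox/flox, with both copies of Terf1 floxed (Terf1 encodes TRF1, a telomere-binding shelterin protein), and all were given tamoxifen weekly at 250 mg/kg, starting when they were 8 weeks old. Controls were littermates that lacked cre, aged 11 months after 9 months on tamoxifen (n = 3). The SPC-cre TRF1flox/flox mice carry cre under the surfactant protein C promoter, which is active in alveolar type 2 cells, and were aged 5 months after 3 months on tamoxifen (3-month cre, n = 3) or 11 months after 9 months (9-month cre, n = 3). The 9-month cre group thus matched the controls in age and exposure. In the other comparisons age and length of exposure differ between the groups as well, and there was no 3-month control. Values are log2 intensities relative to the 75th percentile of the same array, called levels below. They are compared between arrays for 1 gene and never between genes. A gene is said to have risen or fallen where the limma test gave a Benjamini-Hochberg adjusted p under 0.05 over all 16843 genes.

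In type 2 immune responses the cytokines IL-4 and IL-13 bind receptors that contain the IL-4 receptor alpha chain, encoded by Il4ra, alone with the common gamma chain or together with the IL-13 receptor chain encoded by Il13ra1. The receptors activate the transcription factor STAT6. In mouse macrophages STAT6 drives Arg1, an arginase that turns arginine into ornithine and urea, Retnla (also called FIZZ1 or RELM-alpha), a secreted resistin-like protein, and Chil3 (Ym1), a secreted chitin-binding protein without chitinase activity. Chil4 (Ym2) is the close relative of Chil3, Chil1 (BRP-39, the mouse counterpart of YKL-40) is another chitinase-like protein, and Chia1 encodes acidic mammalian chitinase, an active enzyme that lung epithelium secretes in quantity. In the lung these genes are known from allergic inflammation, parasite infection and fibrosis.

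Promoter windows are shown for Retnla, Chil3 and Chil4, whose levels followed each other most closely from array to array by Pearson's r. The window of Chia1, which lies beside Chil3 and Chil4, is shown too. In the RefSeq annotation Chia1, Chil3 and Chil4 are consecutive genes on chromosome 3, with Chia1 on the plus strand and the others on the minus strand. The sequences are the 250 bases before the RefSeq transcript start in assembly GRCm38.p6, 5′ to 3′ on the strand of the gene. Capitals mark every match, on either strand, to 4 letter patterns: TTCNNNNGAA and TTCNNNGAA, the palindromes bound by STAT proteins, TTGCNNAA, a pattern of C/EBP factors, and TATAAA, the TATA box.
Retnla (chr16:48842359-48842608, plus strand): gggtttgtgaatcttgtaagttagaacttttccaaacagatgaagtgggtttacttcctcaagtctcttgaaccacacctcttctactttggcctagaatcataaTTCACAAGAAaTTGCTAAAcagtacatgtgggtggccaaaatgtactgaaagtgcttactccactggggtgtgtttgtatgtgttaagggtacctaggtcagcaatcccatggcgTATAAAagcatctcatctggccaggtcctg
Chil3 (chr3:106167565-106167814, minus strand): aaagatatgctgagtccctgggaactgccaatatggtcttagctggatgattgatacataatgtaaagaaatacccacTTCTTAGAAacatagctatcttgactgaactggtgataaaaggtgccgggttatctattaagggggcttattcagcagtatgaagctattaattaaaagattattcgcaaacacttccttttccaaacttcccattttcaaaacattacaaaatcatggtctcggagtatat
Chil4 (chr3:106219480-106219729, minus strand): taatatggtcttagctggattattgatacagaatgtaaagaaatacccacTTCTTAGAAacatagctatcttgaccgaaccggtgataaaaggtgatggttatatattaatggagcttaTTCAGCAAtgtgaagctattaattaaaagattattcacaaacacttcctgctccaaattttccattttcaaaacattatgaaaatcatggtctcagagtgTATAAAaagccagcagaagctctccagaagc
Chia1 (chr3:106113132-106113381, plus strand): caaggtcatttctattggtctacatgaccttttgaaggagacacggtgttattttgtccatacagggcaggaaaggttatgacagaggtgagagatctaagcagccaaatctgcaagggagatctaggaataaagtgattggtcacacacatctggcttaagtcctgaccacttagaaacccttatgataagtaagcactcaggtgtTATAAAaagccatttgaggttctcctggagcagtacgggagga

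Of the 8 members 7 had a promoter window in the table, and Arg1 is not listed there. The Retnla window holds TTCACAAGAA at positions -145 to -136 from the transcript start, with TTGCTAAA at -134 to -127 and a TATA box at -30 to -25. The Chil3 and Chil4 windows both hold TTCTTAGAA, at -172 to -164 and at -200 to -192. The difference in position matches the 28 bases by which the aligned windows are offset. Over 223 aligned columns the Chil3 and Chil4 windows were identical at 201, or 90.1%. Chil4 also holds a C/EBP pattern on the minus strand (TTCAGCAA at -131 to -124) and a TATA box at -31 to -26, and Chia1 holds a TATA box at -43 to -38. The longer STAT palindrome occurs in 5.85% of the 32851 promoter windows of the same length in the table, the shorter one in 7.02%, the C/EBP pattern in 9.56% and the TATA box in 12.4%. The windows of Chil1, Il4ra and Il13ra1 hold none of the 4 patterns. A match describes letters in a window, and these arrays did not measure binding there.

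The slides and the animals differed in ways that bear on every comparison below. All 3 controls were on slide 1 together with 3-month cre replicate 1, while the other 5 arrays were on slide 2, so that no slide held both controls and 9-month cre lungs. From Xist and Y-linked probes the controls all read as male, and each cre group as 1 male (3-month replicate 2 and 9-month replicate 1) and 2 females. Terf1 itself was at levels of -0.37, -0.05 and 0.20 in the controls, -0.58, -0.68 and -0.62 in 3-month cre and -0.41, -0.97 and -0.39 in 9-month cre lungs. Its log2 fold change against controls was -0.52 ± 0.19 (SE, adjusted p = 0.131) at 9 months and -0.55 ± 0.19 (adjusted p = 0.190) at 3 months. Neither was called. Every cre array lay below every control array. Whether the probe lies inside the floxed part of the gene is unknown here. Because RNA came from whole lung, fewer cells of a type and less RNA per cell cannot be told apart.

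The secreted proteins and enzymes, 6 of the members, are described first. Arg1 was high in the 3-month cre lungs and low in the other groups. Its levels were -1.85, -4.13 and -3.33 in control replicates 1 to 3, -1.02, -0.86 and -1.80 in 3-month cre lungs and -4.27, -4.61 and -3.22 in 9-month cre lungs. All 3-month cre arrays lay above all others, with control replicate 1 just below the lowest of them. From 3 to 9 months of tamoxifen in cre lungs Arg1 fell by 2.81 ± 0.59 (SE) on the log2 scale, a 6.99-fold difference (limma, adjusted p = 0.0408). Against controls the 3-month cre mean was 1.88 ± 0.59 higher (adjusted p = 0.158) and the 9-month cre mean differed by -0.93 ± 0.59 (adjusted p = 0.331), with overlapping arrays.

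Chia1, the chitinase with enzymatic activity, had the same order of groups. Control levels were 3.39, 2.83 and 3.16, 3-month cre levels 4.16, 4.78 and 4.08, and 9-month cre levels 3.33, 3.34 and 2.66. The 3-month cre arrays did not overlap the others, while controls and 9-month cre lungs covered the same range. Chia1 fell by 1.23 ± 0.26 between 3-month and 9-month cre lungs, a 2.35-fold difference (limma, adjusted p = 0.0409). The 3-month cre mean was 1.22 ± 0.26 above controls (adjusted p = 0.0915), and the 9-month cre mean differed from controls by -0.017 ± 0.26 (adjusted p = 0.971).

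Chil4 varied most between arrays among the members, over a 45.1-fold range. It was at 1.56, -2.83 and -0.53 in controls, 2.28, 2.66 and 2.45 in 3-month cre lungs and 1.01, 0.31 and -0.57 in 9-month cre lungs. The 3-month cre lungs were all above the other groups and close to each other (2.46 ± 0.19, SD, n = 3), whereas the controls spread over a mean of -0.60 ± 2.20 (SD, n = 3). The fitted difference between 3-month cre and controls was 3.07 ± 0.94 (SE), or 8.38-fold, with an adjusted p of 0.153. Between the cre groups it was -2.21 ± 0.94 (adjusted p = 0.164) and between 9-month cre and controls 0.85 ± 0.94 (adjusted p = 0.578). None of these was called.

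Chil3, the neighbour of Chil4, was at 7.12, 5.17 and 6.31 in controls, 7.29, 7.46 and 7.66 in 3-month cre lungs and 7.74, 7.28 and 6.72 in 9-month cre lungs. The 3-month cre arrays lay above the controls and within the range of the 9-month cre arrays. Against controls the 3-month cre mean was 1.27 ± 0.45 higher (adjusted p = 0.198) and the 9-month cre mean 1.05 ± 0.45 higher (adjusted p = 0.180). Between the cre groups Chil3 differed by -0.22 ± 0.45 (adjusted p = 0.781). The positions of the Chil3 and Chil4 probes within the transcripts were not used here. The 2 genes are close relatives, and signal from 1 transcript on the probe of the other was not tested.

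Retnla was at 6.59, 3.97 and 4.52 in controls, 6.62, 6.90 and 7.05 in 3-month cre lungs and 6.91, 5.53 and 5.99 in 9-month cre lungs. Control replicate 1 was just below the lowest 3-month cre array, and the other controls were the lowest arrays of all. The 3-month difference from controls was 1.83 ± 0.63 (adjusted p = 0.185), the 9-month difference 1.12 ± 0.63 (adjusted p = 0.279) and the difference between cre groups -0.71 ± 0.63 (adjusted p = 0.489). Chil1 was at 5.89, 5.43 and 5.96 in controls, 6.56, 6.82 and 6.80 in 3-month cre lungs and 6.78, 5.71 and 6.24 in 9-month cre lungs. All 3-month cre arrays exceeded all controls, and the 9-month cre arrays spread across both. Chil1 differed from controls by 0.97 ± 0.26 in 3-month cre lungs (adjusted p = 0.130) and 0.49 ± 0.26 in 9-month cre lungs (adjusted p = 0.261), and between the cre groups by -0.48 ± 0.26 (adjusted p = 0.261). No difference of Retnla or Chil1 was called.

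The receptor chains had a different order of groups, with their highest means in 9-month cre lungs. Il13ra1 was at 2.06, 2.34 and 2.46 in controls, 2.74, 2.77 and 2.67 in 3-month cre lungs and 3.00, 2.80 and 2.78 in 9-month cre lungs. The 3 groups did not overlap. Il13ra1 rose by 0.57 ± 0.13 in 9-month cre lungs against controls, a 1.49-fold difference (limma, adjusted p = 0.0383). It was 0.44 ± 0.13 higher in 3-month cre lungs (adjusted p = 0.139), and the cre groups differed by 0.13 ± 0.13 (adjusted p = 0.524). The gene lies on the X chromosome. The male cre lungs, at 2.77 after 3 months and 3.00 after 9 months, were above the male controls and above the female cre lungs of the same group. Each was 1 lung on slide 2, whereas all controls were on slide 1, so that slide and genotype cannot be told apart among the males.

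Il4ra, read by the brighter of its probes, was at 1.35, 1.23 and 1.74 in controls, 1.28, 1.58 and 1.40 in 3-month cre lungs and 1.93, 2.13 and 1.84 in 9-month cre lungs. The 9-month cre arrays lay above all others, and the remaining groups overlapped. The 9-month cre mean was 0.52 ± 0.16 above controls (adjusted p = 0.0844) and 0.54 ± 0.16 above 3-month cre lungs (adjusted p = 0.0737), and the 3-month difference from controls was -0.021 ± 0.16 (adjusted p = 0.959). The dimmer Il4ra probe gave another order, with levels of -3.48, -3.62 and -3.09 in controls, -2.69, -2.43 and -2.40 in 3-month cre lungs and -3.44, -3.17 and -2.64 in 9-month cre lungs. On that probe the 3-month cre arrays exceeded all controls, by 0.88 ± 0.23 (adjusted p = 0.0963 over all probes), and overlapped the 9-month cre arrays, and the cre groups differed by -0.57 ± 0.23 (adjusted p = 0.134 over all probes). The probes of Il4ra thus disagree on the direction between the cre groups, and neither was called.

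**Figure D1:**
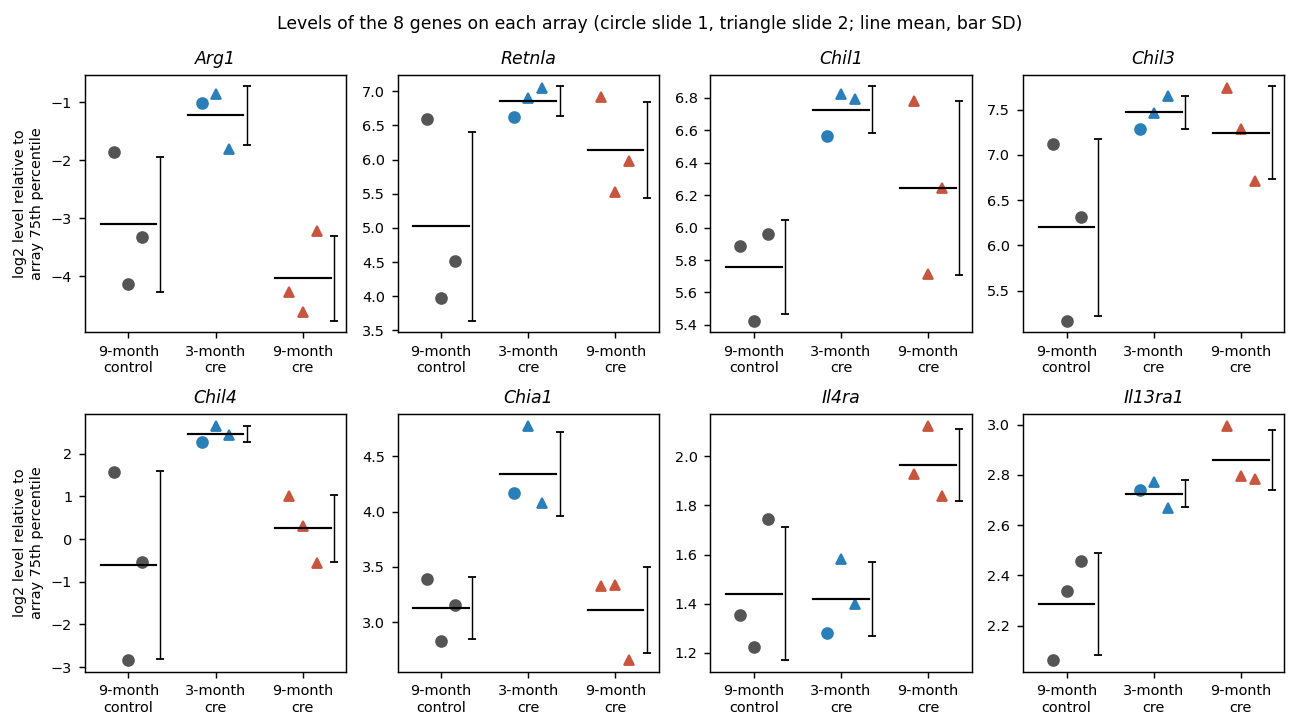
Log2 level of each of the 8 genes relative to the 75th percentile of the array (y axis, a separate scale per gene) in the 3 groups (x axis), 1 point per array, with circles for slide 1, triangles for slide 2, a line at the group mean and a bar for the SD (n = 3). The 3-month cre points lie above all controls for every gene except Il4ra, and Arg1, Chil4 and Chia1 are lower again in 9-month cre lungs.

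Against controls at equal age and exposure, 1 of the 8 members rose in 9-month cre lungs and none fell, where 6.45% of all genes tested were called (3.65% rose). The median log2 fold change of the members was 0.55, and 0.02 over all genes. Arrays did not overlap for 2 of 8 members, Il13ra1 and, on its brighter probe, Il4ra. Both were higher, against 32.5% of all genes in either direction and 17.5% higher. A share of 2 in 8 is close to that background, and the count is not a result about these genes.

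Against the same controls, none of the 8 members was called in 3-month cre lungs, where 0.451% of all genes were. The limma fit gave 7 members an unadjusted p under 0.05, as it did for 18.7% of all genes, and adjusted p-values ran from 0.0915 to 0.959. The arrays of the same 7 members, all but Il4ra, lay entirely above the controls, whereas this held for 19.6% of all genes. The median log2 fold change was 1.24 for the members and 0.05 over all genes. Because these arrays did not overlap, 3-month cre replicate 1, on slide 1 with the controls, necessarily exceeded all 3 controls for these 7 members. It lay above the control mean by 2.08 for Arg1, 1.60 for Retnla, 0.80 for Chil1, 1.09 for Chil3, 2.89 for Chil4, 1.04 for Chia1 and 0.45 for Il13ra1. Among males only, the same necessarily held for 3-month cre replicate 2, again for 7 of the 8. Replicate 1 read as female and replicate 2 was on slide 2, so neither comparison holds both slide and sex equal.

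Control replicate 2 was the lowest control for 7 of the 8 members, and control replicate 1 the highest for 5. The SD of the controls was larger than that of the 3-month cre lungs for every member except Chia1, for example 1.38 against 0.22 for Retnla and 0.98 against 0.18 for Chil3.

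Between the cre groups, 2 of 8 members fell and none rose, where 4.99% of all genes were called and 3.2% fell. The members' median difference was -0.60, and -0.03 over all genes. Arrays did not overlap for 5 of 8 members, against 33.6% of all genes. Arg1, Chil4 and Chia1 were lower at 9 months and Il4ra and Il13ra1 higher. Il4ra was so on its brighter probe only, as the dimmer one differed by -0.57 with overlapping arrays. For Il13ra1 the highest 3-month cre array, at 2.77, was just below the lowest 9-month cre array, at 2.78. On slide 2 alone, the 3 lungs of the 9-month cre group differed from 3-month cre replicates 2 and 3 by -2.70 for Arg1, -2.30 for Chil4, -1.32 for Chia1, 0.47 for Il4ra and 0.14 for Il13ra1. Among the males the difference was -3.41 for Arg1, -1.65 for Chil4 and -1.45 for Chia1, and among the females it was -2.50, -2.49 and -1.12. For Retnla the same difference was 0.01 between the males and -1.08 between the females.

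**Figure D2:**
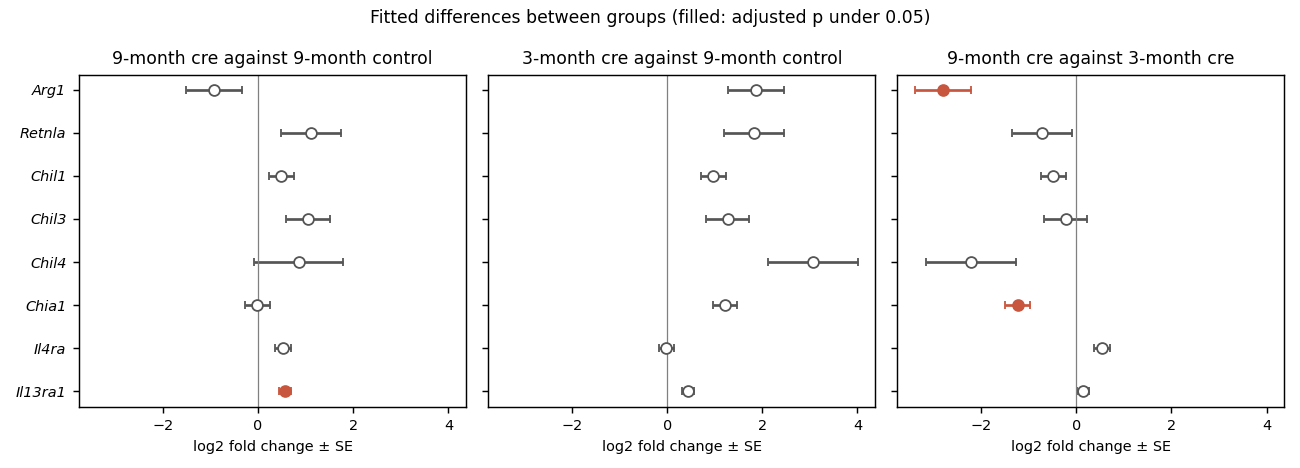
Fitted log2 fold change (x axis) of each of the 8 genes (y axis) in the 3 comparisons, with bars for the SE and filled points for adjusted p under 0.05. The filled points are Il13ra1 at 0.57 in 9-month cre against control, and Arg1 at -2.81 and Chia1 at -1.23 in 9-month against 3-month cre.

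All 3 calls were close to the threshold and were lost under several settings. With slide as a fixed block the Il13ra1 difference was 0.59 (adjusted p = 0.977), that of Arg1 -2.70 (adjusted p = 0.137) and that of Chia1 -1.32 (adjusted p = 0.119), and no gene of the array was called in any comparison. Under that block 837, 1144 and 3589 genes had an unadjusted p under 0.05 in the 9-month against control, 3-month against control and 9-month against 3-month comparisons. With animal sex as a covariate the adjusted p was 0.0886 for Il13ra1, 0.0653 for Arg1 and 0.0487 for Chia1. Over all genes that covariate left 0 called against controls at 9 months and 0 at 3 months, from 1087 and 76, and 234 between the cre groups, from 840. At an unadjusted p under 0.05 it left 3711, 2191 and 4527. The rises and falls of the other genes named below, from the fit without these terms, are therefore all lost against controls under either the slide block or the sex covariate. Leaving out single arrays kept the Il13ra1 call only without 9-month cre replicate 2 or 3, with fold changes of 0.46 to 0.66 over the 9 omissions. The Arg1 call was lost without control replicate 2, any 3-month cre array, or 9-month cre replicate 1 or 2, with differences of -3.21 to -2.52. The Chia1 call was lost without control replicate 1 or 2, any 3-month cre array, or 9-month cre replicate 1 or 3, with differences of -1.36 to -1.01. No direction changed in these 3 comparisons.

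The levels of Retnla, Chil3 and Chil4 followed each other from array to array. Over the 9 arrays Pearson's r was 0.91 for Retnla with Chil3, 0.90 for Retnla with Chil4 and 0.89 for Chil3 with Chil4, with Spearman's rho of 0.93, 0.82 and 0.77. After the group means were taken out, r was 0.85, 0.88 and 0.98. Without control replicates 2 and 3, the 2 arrays farthest from the median of Retnla and of Chil3, r was 0.64, 0.77 and 0.62 over the remaining 7, so that part of the likeness rests on these controls. Among the 7 members with a promoter window, these are the genes whose windows hold a STAT palindrome. Arg1 had no window to look at. The palindromes of Chil3 and Chil4 are the same letters in windows that are 90.1% identical, so they are not separate instances. Other pairs were also alike, and Spearman's rho was highest, at 0.95, for Chil4 with Chia1, whose window holds no STAT palindrome. Retnla with Chil1, whose window also holds none, had an r of 0.83. The part of STAT proteins in these levels was not tested. Chil3 and Chil4 may share signal as close relatives, which was not tested either. Among the 6 secreted proteins and enzymes r ranged from 0.38 (Arg1 with Chil3) to 0.91. Between these and the receptor chains it ranged from -0.59 (Arg1 with the brighter Il4ra probe) to 0.61 (Chil1 with Il13ra1). The dimmer Il4ra probe, which was not used for r, had its highest mean in 3-month cre lungs, as Arg1 did. The negative value thus belongs to the brighter probe only. The arrays share groups, slides and cell composition, so these values describe the 9 lungs.

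**Figure D3:**
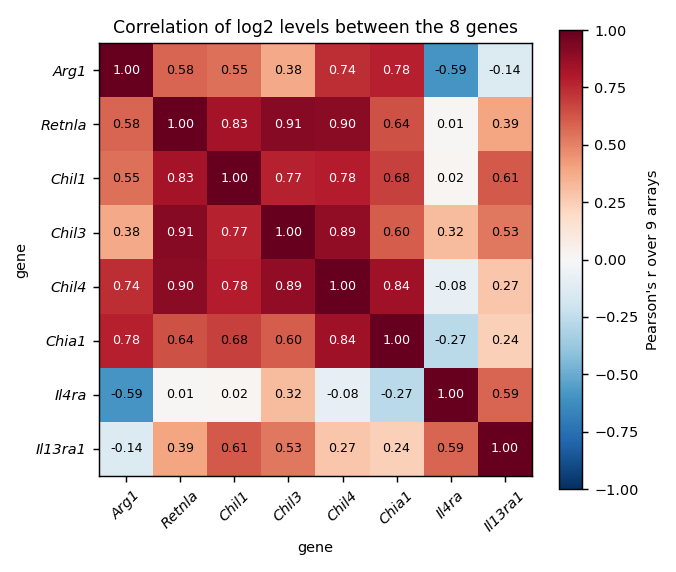
Pearson's r of log2 levels over the 9 arrays for each pair of the 8 genes (both axes), with red for positive and blue for negative values. Retnla, Chil3 and Chil4 form a block at 0.89 to 0.91, and Il4ra, read by its brighter probe only, is at -0.59 with Arg1.

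Genes with the most similar pattern over the 9 arrays were looked up among 14687 genes well above background on all arrays. For Retnla they were Slc26a4, an anion exchanger of airway epithelium (r = 0.961), Chil3 (0.914) and Abitram (0.907), and for Chil3 Eif4h (0.954), Abitram (0.943) and Retnla (0.914). Genes close to Arg1 were Cd8b1 (0.955) and Akr1b3 (0.927), and genes close to Chil1 were Itih4 (0.970) and Mvd (0.963). Chil4 was closest to Wbp11 (0.922), Avpi1 (0.919) and Gsg1 (0.919), and Chia1 to Avpi1 (0.964), Adam28 (0.957) and Tax1bp3 (0.951). Il4ra, on its brighter probe, was closest to Klra17 (0.974), Emilin2 (0.970) and Pram1 (0.969), and Il13ra1 to Ankrd13c (0.971), Eloc (0.954) and Taf13 (0.953).

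The cytokines upstream of the pathway were largely below detection. Il4, Il13, Il5, Il9 and Il25 were on the array and were not well above background on every array of any group. Of the 4 tested genes of the cytokine and alarmin list, 0 were called in each comparison by limma. An unadjusted p under 0.05 (limma) was reached by 2 higher genes and 1 lower gene in 9-month cre against controls. In 3-month cre against controls it was reached by 1, which was higher, and between the cre groups by 2 higher and 1 lower. Tslp, the lower gene against controls at 9 months, was at -1.35 to -0.98 there and -0.87 to -0.46 in controls. Il10, an anti-inflammatory cytokine, was at -7.02, -5.96 and -7.85 in controls, where it was not well above background on any array, and at -2.79, -5.26 and -0.48 in 9-month cre lungs. It was thus at least 5.71-fold higher there, against the dimmest signal counted as above background (limma, adjusted p = 0.0573, not called). That bound was 2.52-fold without 9-month cre replicate 3 and 13.2-fold without 9-month cre replicate 2. In 3-month cre lungs Il10 was at -7.03 to -5.66 and not well above background on any array. Il10 was therefore tested only through the 9-month cre arrays, where it is high, and its difference is given as a value. Areg, an epidermal growth factor receptor ligand, differed by 1.00 ± 0.29 (adjusted p = 0.0746). Il33, an epithelial alarmin, was at 2.88, 2.37 and 2.43 in controls, 3.41, 3.05 and 3.54 in 3-month cre and 3.23, 2.59 and 2.29 in 9-month cre lungs, and the 3-month cre mean was 0.78 above controls (adjusted p = 0.176).

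Of the 16 other receptors and signalling genes of the pathway, 2 rose in 9-month cre lungs against controls and 1 rose between the cre groups. In 3-month cre lungs 0 changed (limma, with 0 at an unadjusted p under 0.05). Against controls at 9 months 12 were higher and 4 lower, with 3 and 2 at an unadjusted p under 0.05 (limma). Socs2, among the lower ones, was at 2.75 to 3.12 against 3.32 to 3.41 in controls. The background for this and every list below is the share of all genes called. It was 6.45% at 9 months and 0.451% at 3 months against controls, and 4.99% between the cre groups. Socs3, a feedback inhibitor of JAK-STAT signalling, rose by 1.37 ± 0.27 in 9-month cre lungs against controls (adjusted p = 0.0283). Jak3, the kinase bound to the common gamma chain, rose by 0.68 ± 0.17 against controls (adjusted p = 0.0492) and 0.79 ± 0.17 against 3-month cre lungs (adjusted p = 0.0408). Stat6 was at 2.20, 2.29 and 2.40 in controls, 2.23, 2.16 and 2.04 in 3-month cre and 2.27, 2.03 and 2.12 in 9-month cre lungs, and the groups overlapped. Its difference from controls was -0.15 in 3-month cre lungs (adjusted p = 0.478) and -0.16 in 9-month cre lungs (adjusted p = 0.384).

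Of 12 transcription factors linked to alternative activation, 2 rose in 9-month cre lungs against controls, 0 changed at 3 months (limma, with 4 at an unadjusted p under 0.05) and 2 rose between the cre groups. Cebpb, a factor known to act on the Arg1 gene, was at 4.52, 4.47 and 4.61 in controls, 4.63, 4.59 and 4.59 in 3-month cre and 5.42, 5.13 and 5.58 in 9-month cre lungs. It rose by 0.84 ± 0.13 against controls (adjusted p = 0.0163) and 0.77 ± 0.13 against 3-month cre lungs (adjusted p = 0.0290). The part of Cebpb in the levels of Arg1 was not tested. Myc rose by 0.82 ± 0.16 against controls (adjusted p = 0.0294), and Nr1h3, the liver X receptor alpha, rose by 0.54 ± 0.12 between the cre groups (adjusted p = 0.0475).

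Of 20 other markers of alternative activation, 3 rose and 1 fell in 9-month cre lungs against controls, 2 rose in 3-month cre lungs, and 1 fell between the cre groups. Their median log2 fold changes in these comparisons were 0.33, 0.32 and 0.03. Trem2, a lipid-sensing receptor, rose by 2.39 ± 0.28 in 9-month cre lungs (adjusted p = 0.00994) and by 1.84 ± 0.28 in 3-month cre lungs (adjusted p = 0.0430). Mrc1, the mannose receptor CD206, rose by 1.19 ± 0.15 at 3 months (adjusted p = 0.0298), from a mean level of 2.02 ± 0.19 (SD, n = 3) in controls to 3.20 ± 0.10 (SD, n = 3), with no overlap of arrays. Msr1, a scavenger receptor, rose by 2.20 ± 0.29 at 9 months (adjusted p = 0.0117). Alox15, a lipoxygenase induced by IL-4, fell in 9-month cre lungs. It was at -4.40, -3.49 and -5.06 in controls, -5.18, -3.44 and -4.13 in 3-month cre and -8.10, -7.99 and -7.64 in 9-month cre lungs, where no array was well above background. It was at least 3.22-fold lower there than in controls (adjusted p = 0.0125) and at least 3.38-fold lower than in 3-month cre lungs (adjusted p = 0.0201).

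Of 20 markers of classical activation, 3 rose in 9-month cre lungs against controls, 0 changed in 3-month cre lungs (limma, with 1 at an unadjusted p under 0.05) and 1 rose between the cre groups, with medians of 0.71, 0.45 and 0.36. Acod1, the itaconate-producing enzyme of activated macrophages, rose by 3.85 ± 0.94 at 9 months (adjusted p = 0.0494), over levels of 1.53, -0.92 and 3.04 in 9-month cre lungs and -3.33, -2.95 and -1.62 in controls. The co-stimulatory receptor ligand Cd86 rose by 1.27 ± 0.29 (adjusted p = 0.0419), Ptgs2, a prostaglandin synthase, by 1.03 ± 0.22 (adjusted p = 0.0332), and Cd80 rose by 0.86 ± 0.18 between the cre groups (adjusted p = 0.0403).

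Arg1 competes for arginine with other enzymes and depends on its transport. Of 20 tested genes of arginine metabolism, 1 rose in each comparison and 1 also fell between the cre groups. Over all genes 6.45% were called at 9 months and 0.451% at 3 months against controls, and 4.99% between the cre groups. The 9-month count of 1 in 20 is close to that share and is not a result about this list. Slc7a2, a cationic amino acid transporter that brings arginine into macrophages, was at -1.36, -1.65 and -1.44 in controls, -0.24, -0.25 and -0.16 in 3-month cre and -0.87, -1.13 and -1.34 in 9-month cre lungs. It rose by 1.27 ± 0.14 at 3 months (adjusted p = 0.0208) and fell by 0.90 ± 0.14 from 3 to 9 months (adjusted p = 0.0264), so that, as for Arg1, all 3-month cre arrays lay above all others. Nos3, the endothelial nitric oxide synthase, rose by 0.88 ± 0.13 against controls at 9 months (adjusted p = 0.0163) and by 0.93 ± 0.13 between the cre groups (adjusted p = 0.0224).

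Other genes of the chitinase and resistin families did not all follow the members. Of 7 tested, 1 rose in 9-month cre lungs against controls, 0 changed in 3-month cre lungs (limma, with 2 at an unadjusted p under 0.05), and 1 rose and 1 fell between the cre groups. Chit1, the chitotriosidase of macrophages, was at -3.99, -4.08 and -4.66 in controls, -4.09, -3.88 and -4.16 in 3-month cre and -2.61, -2.82 and -2.08 in 9-month cre lungs. It rose by 1.74 ± 0.23 against controls (adjusted p = 0.0119) and by 1.54 ± 0.23 against 3-month cre lungs (adjusted p = 0.0243), while Chia1, the other active chitinase, fell between the cre groups. Ctbs, a lysosomal chitobiase, fell by 1.07 ± 0.18 between the cre groups (adjusted p = 0.0293). Retnlg, a resistin-like gene of neutrophils, was at 1.21, -0.68 and 2.85 in controls and 3.78, 4.55 and 0.94 in 9-month cre lungs, with overlapping arrays.

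**Figure D4:**
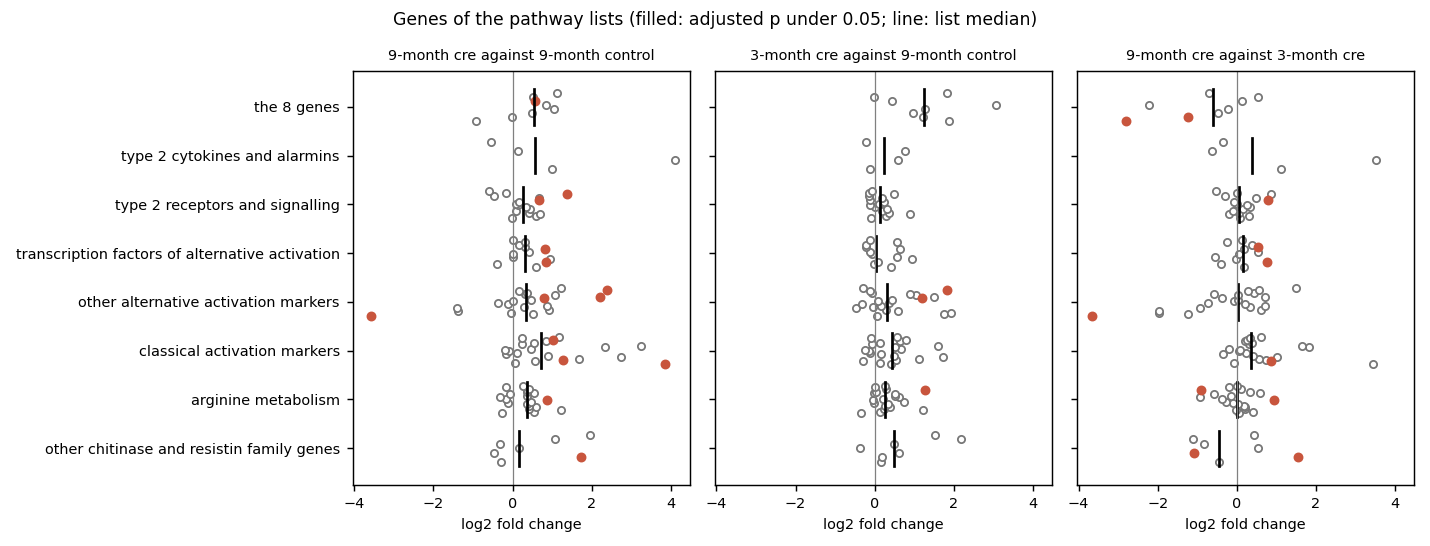
Log2 fold change (x axis) of each tested gene in the 8 genes and in 7 pathway lists (y axis) for the 3 comparisons, with filled points for adjusted p under 0.05 and a line at the list median. The median of the 8 genes is 0.55, 1.24 and -0.60 from left to right, and the called genes of the other lists include Alox15 on the far left and Acod1 on the far right of the 9-month comparison with controls.

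Markers of the cells that make these proteins also differed between the groups. Over 16 alveolar macrophage markers the mean level was 1.70 to 2.22 in controls, 2.60 to 2.75 in 3-month cre and 1.84 to 2.48 in 9-month cre lungs, so that the 3-month cre arrays lay above all others, as they did for Arg1, Chil4 and Chia1 but not for Retnla, Chil1 and Chil3. Of these markers 4 rose at 3 months and 0 fell (limma, with 1 lower at an unadjusted p under 0.05). Among them were Ctsk, a cathepsin, by 2.51 ± 0.28 (adjusted p = 0.0208), Ccl6, a chemokine, by 1.95 ± 0.31 (adjusted p = 0.0486) and Atp6v0d2, a proton pump subunit, by 1.66 ± 0.22 (adjusted p = 0.0302). Mrc1 is in this list as well as among the alternative activation markers. At 9 months 4 rose against controls and Fabp1 fell by 2.61 ± 0.41 (adjusted p = 0.0180), and Car4 fell between the cre groups by 0.91 ± 0.19 (adjusted p = 0.0402). The part of alveolar macrophage number in the levels of the members was not tested.

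Over 16 markers of monocytes and interstitial macrophages the mean level was 1.43 to 1.57 in controls, 2.30 to 2.59 in 3-month cre and 2.49 to 3.26 in 9-month cre lungs, the same order of group means as for Il13ra1. Of these 1 rose at 3 months and 5 at 9 months against controls, and 0 changed between the cre groups (limma, with 4 at an unadjusted p under 0.05). Gpnmb, a lysosomal glycoprotein, rose by 2.39 ± 0.24 in 3-month cre lungs (adjusted p = 0.0208) and by 2.71 ± 0.24 in 9-month cre lungs (adjusted p = 0.00897). Over 13 neutrophil markers, whose cells also make Chil3 in mice, the mean level was -0.69 to 0.81 in controls, 1.28 to 1.81 in 3-month cre and 0.87 to 2.90 in 9-month cre lungs. Of these 1 rose at 3 months, Lcn2 by 2.12 ± 0.26 (adjusted p = 0.0258), and 4 at 9 months against controls.

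Eosinophil markers were dim, with 3 to 4 of 6 well above background in controls and a mean level of -3.56 to -3.02 there, -2.80 to -1.29 in 3-month cre and -2.43 to -2.10 in 9-month cre lungs. Prg2, an eosinophil granule protein, rose by 4.37 ± 0.90 at 9 months (adjusted p = 0.0327), and it was well above background on 1 control array. It was the only 1 of the 6 with an unadjusted p under 0.05 there (limma). In that comparison 5 of the 6 were higher and 1, Siglecf, lower. Epx, also on the list, was not well above background on every array of any group. The mean of 7 markers of group 2 lymphoid cells and T helper 2 cells was -1.57 to -1.17 in controls, -1.07 to -0.82 in 3-month cre and -1.02 to -0.80 in 9-month cre lungs. Among them Ccr4, a chemokine receptor, rose at 9 months by at least 1.80-fold against a group not well above background (adjusted p = 0.0178). Against controls at 9 months 4 of the 7 were higher and 3 lower, with 3 and 1 at an unadjusted p under 0.05 (limma). Ccr8, another dim gene among the higher ones, was well above background on 1 control array. Rora was among the lower ones, with a mean of 3.07 against 3.48 in controls. Of 8 mast cell and basophil markers 0 changed against controls (limma, with 1 at an unadjusted p under 0.05 at each time), and Fcer1a fell by 0.75 ± 0.17 between the cre groups (adjusted p = 0.0463). Their parts in the members' levels were not tested.

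Epithelial markers are given because Chia1, Chil1 and Chil4 are also made by lung epithelium. The mean of 12 alveolar type 2 markers was 4.34 to 5.03 in controls, 4.95 to 5.25 in 3-month cre and 4.38 to 4.66 in 9-month cre lungs, and 3 fell between the cre groups while 0 rose (limma, with 0 higher at an unadjusted p under 0.05). Among these were Lyz2, a lysozyme shared with macrophages, by 2.03 ± 0.35 (adjusted p = 0.0306), Slc34a2, a phosphate transporter, by 1.99 ± 0.25 (adjusted p = 0.0201) and Etv5, a transcription factor, by 0.91 ± 0.16 (adjusted p = 0.0305). Against controls at 9 months 1 of the 12 fell, Etv5 by 0.87 ± 0.16 (adjusted p = 0.0232), and 0 rose. In that comparison 4 of the 12 were higher and 8 lower, with 2 each way at an unadjusted p under 0.05 (limma). The surfactant protein genes Sftpb, Sftpc and Sftpd were among the higher ones, with 9-month cre arrays above all controls. Sftpb, for example, was at 6.86 to 7.08 against 6.01 to 6.45. Goblet cell markers had a mean level of 0.39 to 2.34 in controls, 1.16 to 1.90 in 3-month cre and -0.98 to 0.15 in 9-month cre lungs. Of the 7 tested, Tff2, a trefoil peptide, fell by 2.25 ± 0.26 between the cre groups (adjusted p = 0.0179), and Tff2 and Bpifb1 fell at 9 months against controls, by 1.34 ± 0.26 and 1.54 ± 0.36 (adjusted p = 0.0286 and 0.0454). Of 9 club and ciliated airway markers and 7 alveolar type 1 markers, 0 were called in each comparison by limma, with at most 1 and 2 at an unadjusted p under 0.05. In lists of neighbouring tissues that dissection may bring along, 0 were called in each comparison either. There the largest 9-month differences from controls were -1.49 for Adipoq and -1.36 for Cidec, which is also among the alveolar macrophage markers (white fat, 1 of 8 at an unadjusted p under 0.05), 2.92 for Serpina1a and 1.00 for Alb (liver, 1 of 3), and -1.29 for Smr2 and -0.97 for Bpifa1 (stomach and salivary gland, 0 of 6). Whether epithelial changes contribute to the fall of Chia1 was not tested.

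**Figure D5:**
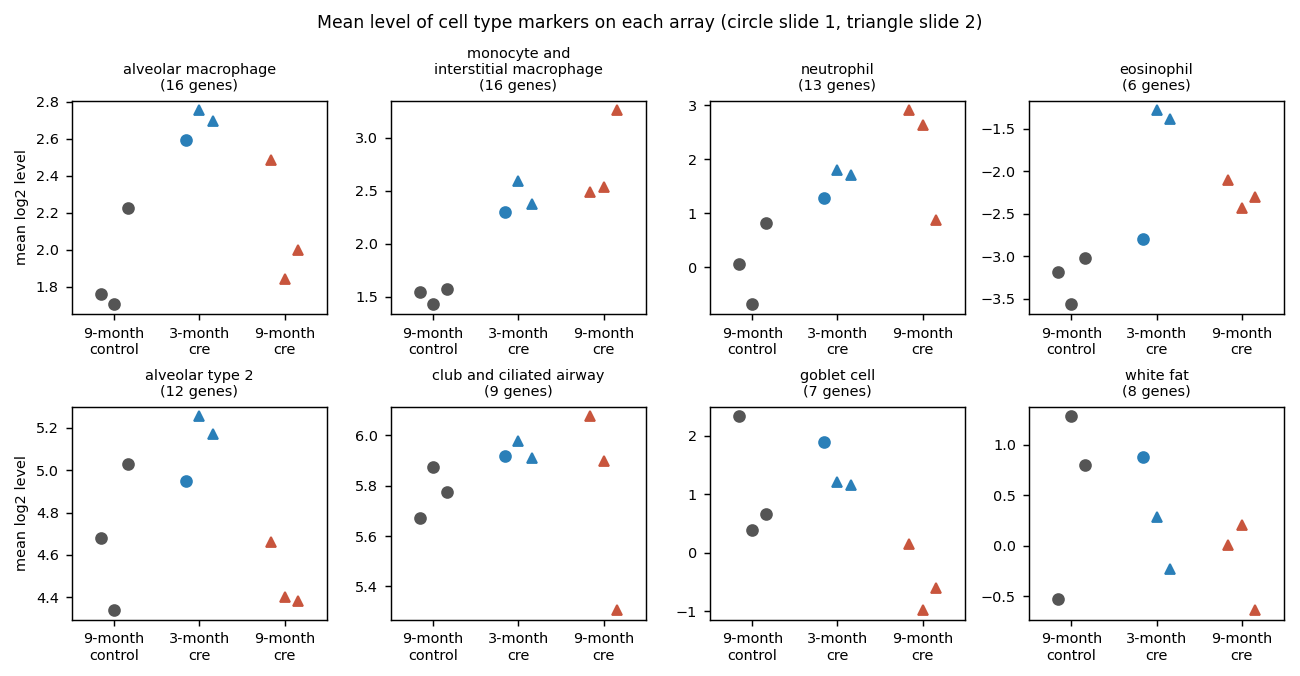
Mean log2 level of 8 marker lists (y axis, a separate scale per list) on each array in the 3 groups (x axis), with circles for slide 1 and triangles for slide 2. Alveolar macrophage markers are highest in 3-month cre lungs (2.60 to 2.75), and goblet cell markers are lowest in 9-month cre lungs (-0.98 to 0.15).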

How the data were processed

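The deposited scanner files hold spot intensities made by the authors with Agilent Feature Extraction 10.7.3.1, per the file headers: a background-subtracted processed signal and flags for dim and irregular spots, not scaled between arrays. A deposited value table holds intensities that the authors brought to nearly 1 distribution (medians of 163 to 164). Their method, which the sources used here do not give, is unknown, and they served as an alternative. From the processed intensities, log2 values were taken relative to each array's 75th percentile over non-control probes, which lay at 958 to 1430 units against a local background of 28 to 35. The share of probes well above background was 62.7% to 64.9% on slide 1 and 68.0% to 72.4% on slide 2. The number of arrays limits the precision.

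Irregular spots were dropped, spots of a probe averaged, and probes kept that were well above background throughout 1 or more groups (37647 probes). Names came through RefSeq transcripts (32994 probes named, 23611 not). A gene was read by its probe with the highest mean, of which 16843 remained. A single limma fit (version 3.58.1, R 4.3.3) held all arrays, with the group as its only term and 6 residual degrees of freedom. P-values are two-sided and Benjamini-Hochberg adjusted. Errors are SE unless an SD is named. The code was tested on simulated data. Promoter sequences are RefSeq's, GRCm38.p6, and windows were aligned with Biopython.

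Besides the 8 members with every probe, the genes named are, from each list and comparison, up to 3 called genes with the largest change, or up to 2 as values where a list had none, and the 3 genes most correlated with each member, of which 2 are not reported here. Il33, Tslp, Stat6, Socs2 and Retnlg were added after their values were seen. The members and lists were chosen with earlier results of these data known. Alternatives were background correction, scaling, the deposited values, the filter, the probe rule, slide, sex and replicate number as terms, 2 groups only, and leaving out each array. The labels call the replicates biological. Replicate numbers did not pair the samples: arrays with the same number correlated, after group means were removed, at -0.24 to 0.04 over 9 pairs.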

Additional observations from a re-analysis of the deposited data

Results flagged for a closer look

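Arg1 and Chia1 differed between the cre groups by the test of the difference itself, which is also the difference between their changes from the shared controls. For Arg1 the log2 difference of 9-month cre from controls was -0.93 and that of 3-month cre 1.88, and the test between them gave -2.81 ± 0.59 (limma, adjusted p = 0.0408). For Chia1 these values were -0.017 and 1.22, with a difference of -1.23 ± 0.26 (limma, adjusted p = 0.0409). In both genes all 3 lungs of the 9-month cre group were below all 3 lungs of the 3-month cre group. Age and length of tamoxifen exposure differ between the cre groups and cannot be told apart.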

How the results depend on the processing

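The members called in 9-month cre against controls (1) became 0 with scaling to the array median, no filter on dim probes, each probe tested on its own, slide as a fixed block, animal sex as a covariate or only the 2 groups compared, and 2 with slide as a random block, whose estimated correlation was negative (-0.096). Leaving out 1 array gave 0 to 1. Against controls at 3 months (0) the count was 1 with only the 2 groups compared, which called Chil1, and 0 to 1 without single arrays. Between the cre groups (2) it was 0 without the filter, with the fixed slide block and on slide 2 arrays alone, an alternative chosen after seeing the data, and 1 with sex as a covariate, with 0 to 3 without single arrays. Over the 14 alternatives with no array left out singly, Arg1 and Chia1 were each called in 9 and Chil4 in 1. An unchanged count thus did not always stand for the same genes. The cause of the changed counts was not tested.

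Replicate numbers did not pair the arrays, and 1 of 9 correlated best with an array of its own number. With a replicate block 0 members were called in 9-month cre against controls (Il13ra1, adjusted p = 0.0939) and 0 between the cre groups (Arg1, adjusted p = 0.0818, and Chia1, adjusted p = 0.0796).

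Directions reversed only in uncalled differences. Against controls at 3 months Il4ra became 0.43 as the mean of its probes, 0.042 with the sex covariate and -0.13 to 0.13 without single arrays, and between the cre groups it became -0.015 as the mean of its probes. Against controls at 9 months Chia1 became 0.018 with the random slide block, 0.31 with the sex covariate and -0.17 to 0.21 without single arrays, and Adipoq and Smr2 became 0.57 and 0.17 with the fixed slide block. Without single arrays Chil4 ranged from -0.26 (without control replicate 2) to 1.93, Bpifa1 from -1.99 to 0.048 (without control replicate 2) and Alb from -0.66 (without 9-month cre replicate 2) to 1.94. Between the cre groups Chil3 ranged from -0.47 to 0.042 (without 9-month cre replicate 3). Of the members' other recomputed differences, 483 kept direction and side of the threshold, 37 lost a call and 5 gained one. For the other named genes these counts were 953, 406 and 8.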
